A study of Saccharomyces cerevisiae with 10 samples.

Results

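Gene expression in *Saccharomyces cerevisiae* was compared between cells that had met a rise in osmolarity 1 h earlier and cells that had met a fall in osmolarity 1 h earlier. The comparison took 4 of the 10 arrays of the series, the 2 of Sample B (during stress adaptation) and the 2 of Sample D (during stress recovery). All 5449 budding yeast genes named on the array were tested. For Sample B, log phase cells in rich glucose medium (YPD, 30 °C) were diluted and mixed with an equal volume of YPD with KCl, to a final 1 M KCl. For Sample D, cells that had gone on growing in KCl (Sample C, after stress adaptation) were spun down and suspended in YPD without KCl. Sample A (normal growth) is the starting point of the step into KCl, Sample C that of the step out of it, and Sample E (after stress recovery) came 2 to 3 generations later. All samples carry the same strain label, BQS1350. The methods describe the cells of this growth regime as a *MATα* By4742 derivative with auxotrophic markers and Gcn5 with a MYC13 tag, without using that name, and in that case every sample, the starting ones included, carries the tag. Both samples thus followed a medium change by 1 h. They also differed in how the medium was changed and in where the cells came from, and these cannot be told apart from the direction of the osmotic change.

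A yeast cell placed in concentrated salt loses water. The Hog1 kinase (high osmolarity glycerol pathway) answers by raising glycerol synthesis and uptake, while the factors Msn2 and Msn4 switch on a general set of stress genes, and genes for ribosome assembly are turned down for a time. A cell returned to dilute medium takes up water, releases glycerol through the channel Fps1 and stretches its wall, and the cell wall integrity pathway, which ends in the kinase Slt2, is the route known to sense this stretch. Both answers are known to be transient.

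Replicates differed most in Sample B. The root mean square difference between replicates was 1.04 (log2) in Sample B and 0.32 in Sample D, the smallest of the 5 samples. The median over all genes was highest on the Sample B replicate 2 array, 10.19, against 9.60 in Sample B replicate 1 and 9.59 and 9.69 in Sample D. The median of Sample B minus Sample D over all genes was 0.22, and it was -0.04 after each array had been centred on its median or after quantile normalization, so differences on the deposited scale are to be read against 0.22. The 18S rRNA 3′ probe set had 10.09 and 10.31 in Sample B and 11.37 and 11.83 in Sample D, without overlap. The 25S rRNA 3′ probe set overlapped, at 13.55 and 14.00 in Sample B and 13.92 and 14.04 in Sample D. The difference between 3′ and 5′ probe sets of *EAF5*, a sign of RNA integrity, was 1.16 and 1.31 in Sample B and 1.08 and 1.00 in Sample D. For the other control genes, *ACT1*, *RIP1*, *SPT15*, *SRB4*, *WBP1* and *TDH1*, this difference overlapped between Samples B and D. No common shift in RNA integrity was thus seen. The part of these array values in the results below was not tested. The 5 α-cell marker genes exceeded the background set by probe sets of other species on all 10 arrays, with a summed signal of 57.3 to 62.0 in Sample B and 62.9 to 64.5 in Sample D. The 7 **a**-cell markers summed to 42.2 to 46.7 in Sample B and 42.4 to 44.6 in Sample D, and 5 of them also exceeded the background on all 10 arrays. *URA3* and *LYS2*, which the strain of the methods lacks, were above that background on 0 arrays. The other 2 marker genes of that strain were above it on all 10 arrays, *LEU2* narrowly (5.18 to 5.99) and *HIS3* clearly (10.21 to 11.58). In RNA from whole cultures, fewer cells with a transcript and less of it per cell cannot be told apart.

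With 1 mean per group and no pairing, limma called 0 of the 5449 genes between Samples B and D (adjusted p under 0.05, two-sided). The smallest adjusted p was 0.0589, and 768 genes (14.1%) had an unadjusted p under 0.05. The methods report replicate cultures grown at separate times. On the assumption that equal numbers mark the same culture, which is not stated, the replicate number was also used as a block. With this block 167 genes (3.06%) passed, 157 of them higher in Sample B (2.88% of the genes tested) and 10 lower (0.184%). Words such as higher and lower are used below for genes that passed this blocked test, and other genes are given by their values. After median centring the block called 153 genes higher (2.81%) and 117 lower (2.15%), including 115 of the 157 and the same 10. The counts depended on single libraries. Without Sample B replicate 1 the blocked test called 1781 genes higher and 312 lower, and without Sample B replicate 2 it called 265 and 166. It called 0 in either direction when either Sample D array or either Sample E array was left out, 62 higher and 2 lower without either Sample A array, and 111 higher and 3 lower without either Sample C array. Both fits assume the same spread in every group, so errors of comparisons with Sample B can be too small.

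Of the 12 genes with the largest difference, 8 are in the osmotic stress list, which holds 40 of the 5449 genes tested. The list was drawn up with earlier results of these data known, so this overlap is partly built in and is not a test. The largest difference was that of *SIP18* and the next that of *HXT5*. *SIP18*, which codes for a small, highly hydrophilic protein made when cells lose water, had a signal of 9.78 and 11.94 (log2, replicates 1 and 2) in Sample B and 4.96 and 6.09 in Sample D. It was 40.3-fold higher in Sample B (5.33 ± 0.54 log2, SE with the block, n = 2 arrays each), with a limma adjusted p of 0.0133 with the block and 0.0589 without. On 1 of the 2 Sample D arrays, replicate 1, *SIP18* was not above background, so its fold and rank rest partly on a signal not told from background. *GRE1*, of the same kind, had 9.97 and 12.98 in Sample B and 6.46 and 7.18 in Sample D, a 25.2-fold difference. *STL1*, the glycerol and proton symporter, had 11.21 and 13.94 in Sample B and 7.31 and 8.34 in Sample D, a 26.9-fold difference. In each of these genes both Sample B arrays lay above both Sample D arrays, as they did in 29.0% of all genes (the opposite held in 11.2%).

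*HXT5*, a hexose transporter of slow-growing and stressed cells, had 10.18 and 13.08 in Sample B and 6.16 and 7.11 in Sample D (32.0-fold). *HSP26*, a small heat shock protein that binds unfolded proteins, had 11.61 and 12.92 in Sample B and 7.40 and 8.26 in Sample D (21.7-fold), and its blocked adjusted p, 0.0133, was as small as that of *SIP18*. *ALD3*, a cytosolic aldehyde dehydrogenase, had 10.43 and 13.85 in Sample B and 7.0 and 8.19 in Sample D (23.3-fold). The stress arrays differed more between replicates than the recovery arrays in all 3 genes. The remaining 6 of the 12 largest were *PHM7* (4.72 log2), *NQM1* (4.43), which codes for a second transaldolase, *HBT1* (4.36), *FMP45* (4.32), a membrane protein of the SUR7 family, *TKL2* (4.03), the minor transketolase, and *SPS100* (3.85), a spore wall protein. For all 12 the Sample B replicate 2 array was the highest of the 4. Their adjusted p lay between 0.0133 and 0.0287 with the block and between 0.0589 and 0.0855 without.

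**Figure D1:**
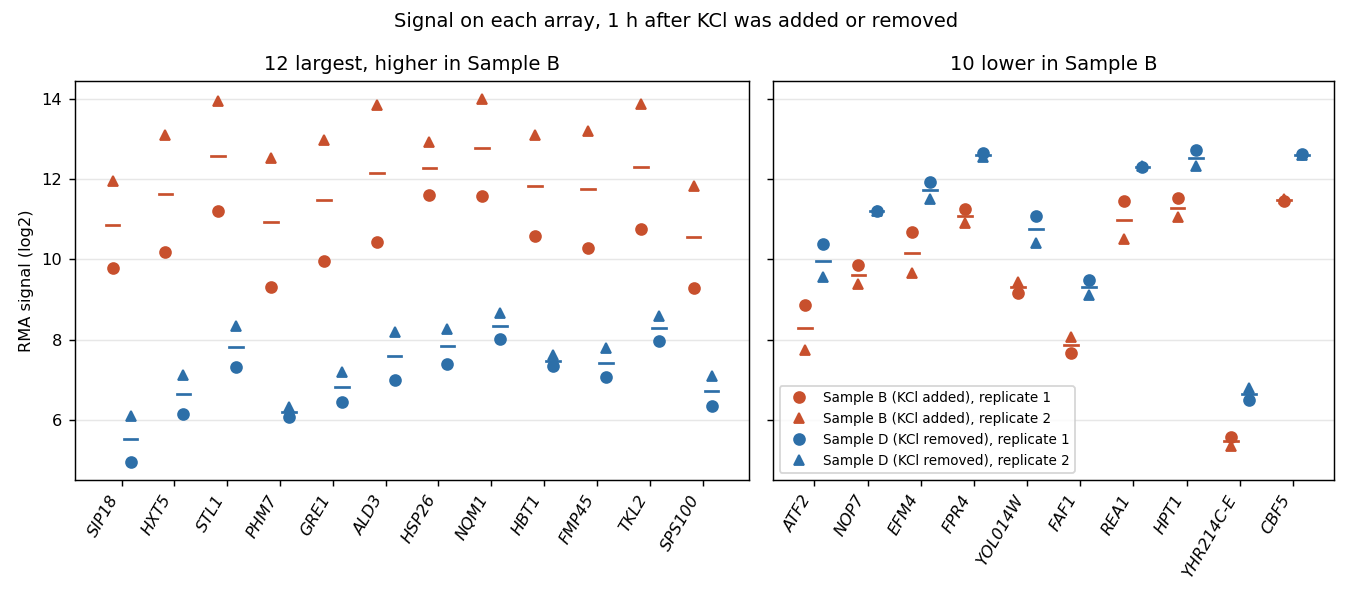
RMA signal (log2) on each Sample B (orange) and Sample D (blue) array for the 12 genes with the largest difference upward and the 10 genes lower in Sample B in the blocked test. Circles are replicate 1, triangles replicate 2 and bars the mean of both. Sample B lies above Sample D on every array in the left panel, where *SIP18* shows the largest difference (5.33), and below it on every array in the right panel.

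Of the 40 osmotic stress genes measured, 25 were higher in Sample B with the block and 0 were lower, and 22 were higher after centring. Counts of genes higher in this and the following lists stand against 2.88% of all genes. The median difference of the osmotic stress genes was 2.30, against 0.22 over all genes. It was 1.89 between the replicate 1 arrays and 2.44 between the replicate 2 arrays. *CTT1*, the cytosolic catalase, had 10.50 and 13.58 in Sample B and 8.71 and 9.36 in Sample D (8.03-fold). *GRE2*, a reductase of methylglyoxal, had 12.81 and 14.32 in Sample B and 10.23 and 11.42 in Sample D (6.69-fold). Some strongly induced genes of this list did not pass. *HSP12*, a hydrophilic membrane protein, had 14.45 and 14.60 in Sample B and 11.79 and 12.78 in Sample D, a difference of 2.24 with an adjusted p of 0.0597 with the block. *TMA10* overlapped between the groups, at 11.00 and 12.80 in Sample B and 10.26 and 11.08 in Sample D.

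Yeast balances salt outside the cell mostly with glycerol inside it. The list named for its synthesis and uptake has 12 genes and also holds some that act in its use. Of these 12 genes, 6 were higher in Sample B and 0 lower (median 1.27). Beside *STL1* these covered both steps of synthesis. *GPD1*, the first and rate-limiting enzyme, had 13.58 and 14.21 in Sample B and 12.35 and 12.95 in Sample D (2.37-fold, adjusted p 0.0348 with the block, 0.196 without). *GPP2*, which removes the phosphate, had 13.55 and 14.39 in Sample B and 11.22 and 12.25 in Sample D (4.70-fold). *GUT2* and *DAK1*, which act in glycerol use and dihydroxyacetone removal, were 4.51-fold and 3.92-fold higher, and the reductase *YPR1* 2.46-fold. After centring *GPD1* no longer passed (adjusted p 0.0585). None of the 5 genes for water and glycerol channels and their regulators passed. The glycerol exporter gene *FPS1* had 10.48 and 11.32 in Sample B and 10.33 and 10.58 in Sample D, a difference of 0.44 with a 95% interval of -0.11 to 1.00.

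Small stress proteins came close to the osmotic list, which shares members such as *SIP18* and *GRE1* with them. Of 23 measured, 12 were higher in Sample B and 0 lower, with a median of 1.88. *SPG4*, named for survival in stationary phase, had 8.41 and 11.57 in Sample B and 5.78 and 6.66 in Sample D (13.6-fold). *DDR48* was more even between replicates, at 13.20 and 13.72 in Sample B and 11.70 and 12.14 in Sample D (2.91-fold). Among 37 cytosolic chaperones only *HSP26* and *HSP31*, a glyoxalase and chaperone, passed, and *HSP31* was 6.26-fold higher. The HSP70 gene *SSA4* had 8.82 and 13.43 in Sample B and 8.19 and 9.21 in Sample D, so its difference of 2.42 rested on Sample B replicate 2.

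Some genes of carbon reserves and sugar phosphate metabolism were higher in Sample B as well. In the list of trehalose and glycogen 3 of 22 passed: *GSY2*, the major glycogen synthase (2.57-fold), *NTH2*, a trehalase (2.20-fold), and *PIG1*, a glycogen phosphatase subunit (2.17-fold). *GSY2* and *PIG1* no longer passed after centring (adjusted p 0.0905 and 0.0738). The vacuolar trehalase gene *ATH1* had 8.22 and 11.57 in Sample B and 7.26 and 8.07 in Sample D and did not pass. In the pentose phosphate list 3 of 18 were higher, all minor forms of an enzyme: *NQM1*, *TKL2* and *GND2*, the second 6-phosphogluconate dehydrogenase, which had 10.12 and 12.27 in Sample B and 7.68 and 8.03 in Sample D (10.2-fold). The median of that list was 0.08, below that of all genes. Of 20 aldose and carbonyl reductases, 5 were higher (median 0.94), with *YML131W* (7.75-fold) and *BDH2* (6.06-fold) beside *GRE2*, *GRE3* and *YPR1*. In the aldehyde dehydrogenase list *ALD3* and the mitochondrial *ALD4* (3.03-fold) were higher, 2 of 9.

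Other lists of carbon metabolism held a few genes that were higher in Sample B, to be read against 2.88% of all genes. Of 40 genes of fatty acid oxidation, carnitine and peroxisomes, 4 passed (median 0.66), and *POT1*, the peroxisomal thiolase, had 7.06 and 9.37 in Sample B and 4.57 and 5.04 in Sample D. Neither Sample D array was above background, and against the background *POT1* was at least 7.96-fold higher in Sample B (adjusted p 0.0395 with the block). *PEX18*, also not above background in Sample D, was at least 3.23-fold higher. *POX1*, above background on 1 of the 2 Sample D arrays, and *CRC1* were 4.29-fold and 4.16-fold higher. Of 34 genes of the citric acid cycle and gluconeogenesis, 3 passed: the acetate transporter gene *ADY2* (4.47-fold), *MLS1*, malate synthase (2.86-fold), and *LSC2* (2.31-fold). In the respiratory chain list 2 of 46 passed, *NDE2* and *COX5B*, the form of subunit 5 used at low oxygen (3.18-fold), a share near that of all genes. After centring *POX1* and *LSC2* no longer passed (adjusted p 0.0719 and 0.0558).

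In the lists that follow, too, the counts stand against 2.88% of all genes. Of 15 vacuolar proteases and inhibitors 5 were higher in Sample B (median 0.94). *PAI3*, an inhibitor of proteinase A, had 8.50 and 10.90 in Sample B and 6.40 and 6.55 in Sample D (9.34-fold), and the aminopeptidase gene *APE1* was 4.19-fold higher. Of 34 autophagy genes 5 were higher (median 0.71), but that median was 0.15 between the replicate 1 arrays and 1.24 between the replicate 2 arrays. *ATG39* and *ATG36*, receptors for the nuclear envelope and for peroxisomes, were 4.95-fold and 4.0-fold higher. Of 29 amino acid permeases 4 were higher (median 0.77), but after centring 1 was, against 2.81% of all genes, and the median was 0.52. *GAP1*, the general amino acid permease, had nearly equal replicates, 9.35 and 9.23 in Sample B and 7.18 and 7.57 in Sample D (3.78-fold). *ARO9*, which begins the breakdown of aromatic amino acids, had 11.81 and 13.30 in Sample B and 9.01 and 9.70 in Sample D (9.17-fold). *ARO10*, the decarboxylase of the same route, was named after its values had been seen, and was 8.72-fold higher. Of 41 genes of oxidant defence 7 were higher (median 0.59), and 4 after centring (median 0.34). Among the 7 were *CTT1*, the peroxiredoxin genes *TSA2* (5.83-fold) and *PRX1* (3.80-fold) and the glutathione transferase gene *GTT1* (4.05-fold), of which *TSA2* no longer passed after centring (adjusted p 0.0540). The phospholipid methyltransferase gene *OPI3* was higher too, at 13.39 and 13.65 in Sample B and 11.35 and 11.68 in Sample D (4.02-fold).

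**Figure D2:**
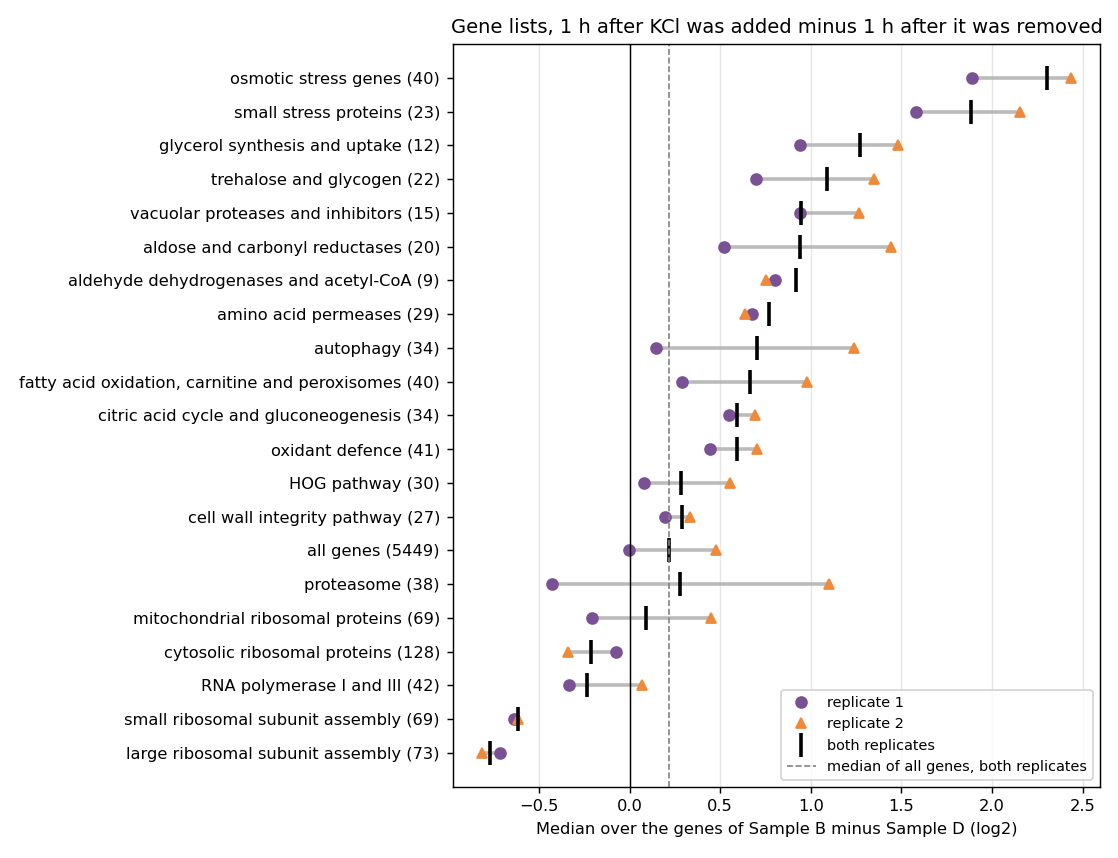
Median over the genes of each list of Sample B minus Sample D (log2), between the replicate 1 arrays (circles), the replicate 2 arrays (triangles) and the group means (bars), with the number of genes in parentheses. The dashed line is the median of all genes (0.22). Osmotic stress genes stand highest (2.30) and assembly factors of the large ribosomal subunit lowest (-0.77), and the proteasome list lies on opposite sides of 0 in the 2 replicates.

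The 10 genes lower in Sample B had smaller differences, between -1.66 and -1.13, and 4 of them act in making ribosomes. These 4 were grouped after the calls were seen, *REA1* is in neither ribosome assembly list below, and the share of such genes among all genes was not counted. *NOP7*, needed for the large subunit, had 9.86 and 9.37 in Sample B and 11.20 and 11.20 in Sample D, 3.00-fold higher in Sample D (-1.58 ± 0.28, adjusted p 0.0348 with the block and 0.0831 without). *REA1*, the large ATPase that releases assembly factors from the large subunit, had 11.45 and 10.51 in Sample B and 12.29 and 12.33 in Sample D. *FAF1*, of the small subunit, had 7.68 and 8.07 in Sample B and 9.49 and 9.11 in Sample D. *CBF5*, the pseudouridine synthase that modifies rRNA, had 11.45 and 11.50 in Sample B and 12.61 and 12.59 in Sample D. The Sample D values of these 4 genes lay within 0.3 of those in Sample A by group mean, so the low values were those of Sample B. The other 6 were *ATF2* (-1.66), an alcohol acetyltransferase, *EFM4* (-1.55), which methylates elongation factor 1A, *FPR4* (-1.52), a nuclear proline isomerase that acts on histones, *HPT1* (-1.24), which salvages purines, *YOL014W* (-1.44) and *YHR214C-E* (-1.18).

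As lists, the ribosome assembly factors were shifted more evenly than they were called. Over all genes 1695 of 5449 had a difference below 0, and 2.15% were called lower after centring. Of 69 factors of the small subunit 68 had a difference below 0, with a median of -0.62 (-0.64 between the replicate 1 arrays and -0.62 between the replicate 2 arrays). Of these 2 passed with the block, *FAF1* and *CBF5*, and 20 after centring. Of 73 factors of the large subunit 71 were below 0, with a median of -0.77 (-0.72 and -0.81 by replicate). Here *NOP7* alone passed with the block and 34 after centring. Both lists kept a negative median with centring (-0.87 and -1.03) and with quantile normalization (-0.89 and -1.04). The median of 42 RNA polymerase I and III genes was -0.24, with 0 calls and 5 after centring, but it was -0.33 between the replicate 1 arrays and 0.07 between the replicate 2 arrays. The 128 cytosolic ribosomal protein genes had a median of -0.21 (-0.07 and -0.34 by replicate). It was -0.47 after centring but -0.17 after quantile normalization, against -0.04 over all genes in both. None passed in either blocked fit. Of the 128, 127 were below 0, and in 89 both Sample B arrays lay below both Sample D arrays, as in 11.2% of all genes. Those of the mitochondrial ribosome had a median of 0.09, which was -0.17 after centring and -0.16 after quantile normalization.

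Several lists held no gene that passed with the block. The 30 genes of the HOG pathway itself had a median of 0.28, and 0.03 after centring. *MSN2* had 9.86 and 10.80 in Sample B and 9.46 and 9.57 in Sample D (0.81, 95% interval 0.17 to 1.46). The 38 proteasome genes had a median of -0.43 between the replicate 1 arrays and 1.10 between the replicate 2 arrays, so no direction can be given. The 9 histone genes lay between -0.24 and 0.13, and the 23 subunits of the SAGA and ADA complexes had a median of 0.20 (-0.05 after centring). *GCN5*, the acetyltransferase tagged in the strain of the methods, had 7.64 and 8.82 in Sample B and 7.82 and 8.33 in Sample D, a difference of 0.16 with a 95% interval of -0.44 to 0.75. In the potassium and sodium transport list 1 of 23 genes passed, the vacuolar exchanger gene *VNX1* (2.09-fold), which did not pass after centring (adjusted p 0.0658). Of all 167 genes called with the block, 85 were in one of the 50 lists and 82 in none.

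The genes higher in Sample B were then placed against normal growth. Of the 157, the Sample D mean was within 0.5 (log2) of the Sample A mean for 102, between 0.5 and 1 above it for 22, more than 1 above it for 27 and 0.5 or more below it for 6. The median was 0.16. These counts describe genes chosen for a low Sample D value relative to Sample B and were not tested. *HSP26* stood 0.09 above Sample A in Sample D, *GRE2* 0.14 and *HBT1* 0.15. *DDR2*, a small stress protein of unknown role, was still 3.45 above Sample A in Sample D, *YNL194C*, of the SUR7 family, 3.18, *RTC3* 3.17 and *STL1* 2.29. For *GAP1* and *OPI3* Sample D minus Sample A was -0.54 and -0.73. Among the genes lower in Sample B, Sample D lay between -0.56 and 0.27 relative to Sample A.

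To set the 2 medium changes side by side, each was taken from its own starting sample. Stress was compared with normal growth (Sample B minus Sample A) and recovery with growth in KCl (Sample D minus Sample C), and the difference of these steps was tested. It passed for 80 genes (1.47%) without the block, 73 above 0 (1.34%) and 7 below (0.128%). With the block it passed for 280 genes (5.14%), 250 above (4.59%) and 30 below (0.551%), and after centring for 301 above (5.52%) and 224 below (4.11%). Without replicate 1 of Sample A, replicate 2 of Sample A or replicate 1 of Sample D the unblocked count was 0, without replicate 1 of Sample C it was 1, and without replicate 1 of Sample B it was 1149 above and 251 below.

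*STL1* had the largest difference of steps, 10.27 ± 1.16 (SE, adjusted p 0.0149), with a step of 7.04 into KCl and -3.24 out of it. *STL1* was not above background on 1 of the 2 Sample A arrays, replicate 2, so the step into KCl and the rank rest partly on a signal not told from background. Its signals were 6.06 and 5.02 in Sample A, 11.21 and 13.94 in Sample B, 10.71 and 11.41 in Sample C and 7.31 and 8.34 in Sample D. *SIP18* (8.96), *HSP12* (8.61), *NQM1* (8.36), *HXT5* (8.13) and *GRE1* (8.10) followed. *SIP18* was not above background on either Sample A array, and against the background its step into KCl was at least 5.32. For each of these 6 the step into KCl was above 0 and the step out of it below 0. Of the 6, *HSP12* had the Sample D mean farthest above Sample A, by 4.55. Of the 73 genes, 24 were among the 40 measured in the osmotic stress list, against 1.34% of all genes called above 0. That list was drawn up with earlier results of these data known.

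The 7 genes below 0 moved the other way. *PHO5*, the secreted acid phosphatase that is made when phosphate is scarce, had 13.02 and 12.07 in Sample A, 10.33 and 9.70 in Sample B, 9.50 and 9.34 in Sample C and 10.85 and 11.02 in Sample D. Its steps were -2.53 into KCl and 1.51 out of it, a difference of -4.04 (adjusted p 0.0149). *PHM6*, also under phosphate control, had steps of -1.92 and 1.73. *FRE7*, a plasma membrane reductase induced when copper is scarce, had steps of -1.72 and 1.69. *YOL014W* (-1.45 and 1.82), *YHR214C-E* (-1.26 and 1.37) and *FPR4* (-1.82 and 0.53) had the same pattern. *FRE7* was not above background on 1 Sample B and 1 Sample C array, and *YHR214C-E* on 1 Sample C array. The steps from or to those samples rest partly on such signals. The last of the 7 was *HOM3*, aspartate kinase, with a difference of -1.84. Between Samples B and D themselves *PHO5*, *PHM6* and *FRE7* did not pass, with blocked adjusted p-values of 0.124, 0.116 and 0.0530.

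**Figure D3:**
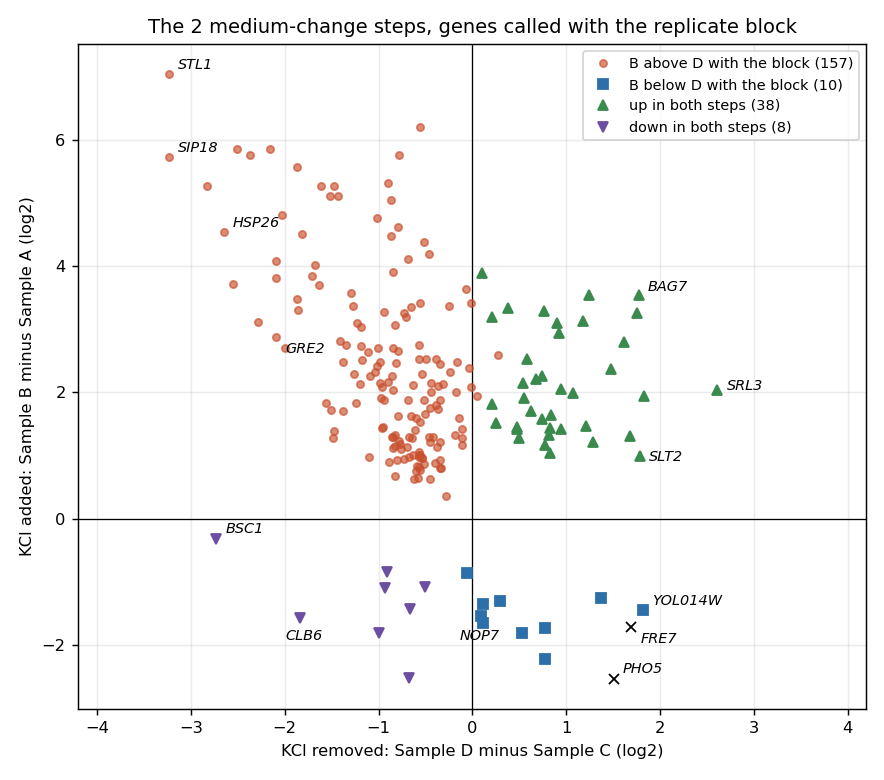
Step into KCl (Sample B minus Sample A, log2, vertical) against step out of KCl (Sample D minus Sample C, log2, horizontal). Each point is a gene. Orange circles are the 157 genes higher and blue squares the 10 genes lower in Sample B than in Sample D with the block. Green and purple triangles are the 38 and 8 genes that passed for the mean of the steps and moved the same way on all arrays. Crosses mark *PHO5* and *FRE7*. Most orange points lie upper left, where the step into KCl is above 0 and the step out of it below 0, as for *STL1* (7.04 and -3.24).

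The mean of the steps asks what was common to both medium changes. limma called 0 genes for it without the block (546, or 10%, with an unadjusted p under 0.05) and 71 (1.3%) with it, 63 above 0 (1.16%) and 8 below (0.147%). After centring the blocked counts were 99 (1.82%) and 31 (0.569%). A mean can pass on the larger step alone, and in 18 of the 63 the step out of KCl was below 0. Of the 63, 38 were higher after both changes with both replicate numbers, and all 8 below 0 were lower after both. In none of the 38 did the step out of KCl pass alone (smallest limma adjusted p with the block 0.123). A response of these 38 to the step out was thus not shown gene by gene. These genes were chosen for the mean of the same steps, so nothing is read from these counts beside the shares of all genes (6.09% higher and 5.80% lower in all 4 differences).

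*TMA10* had the largest mean, 3.04, with steps of 5.48 and 0.61. *YNL194C* (2.82), *DDR2* (2.49) and *HSP12* (2.48) passed on the step into KCl and had a step below 0 on leaving it. *BAG7*, a GTPase-activating protein for Rho1, which regulates the cell wall integrity pathway, had 9.22 and 9.56 in Sample B against 5.09 and 6.62 in Sample A, and 8.42 and 8.28 in Sample D against 7.45 and 5.71 in Sample C. *RGI1* had steps of 3.25 and 1.76. For *BAG7* and *RGI1* the step into KCl passed alone (adjusted p with the block 0.0125 and 0.0142). The step out of it did not (0.473 for each). *TMA10*, *YNL194C* and *BAG7* were each not above background on 1 of the 2 Sample A arrays. Their steps into KCl, and the rank of *TMA10*, thus rest partly on a signal not told from background.

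For the mean of the steps, 4 of 27 genes of the cell wall integrity pathway were called above 0, against 1.16% of all genes. So were 4 of 21 genes linked to its transcription factor Rlm1. *SLT2*, the kinase at the end of the pathway, had 11.26 and 12.36 in Sample B against 10.36 and 11.28 in Sample A, and 11.89 and 12.41 in Sample D against 10.43 and 10.29 in Sample C. Sample E, after recovery, had 11.22 and 12.06, nearer to Sample B than to Sample A with both replicate numbers. High *SLT2* values were thus not limited to the hour after a medium change. The mean step of *SLT2*, which does not use Sample E as a baseline, was 1.39 ± 0.22 (adjusted p 0.0305 with the block, 0.172 without). Neither step passed alone for *SLT2* (adjusted p with the block 0.0773 into KCl and 0.123 out of it). Samples B and D differed by -0.33 (95% interval -1.04 to 0.37). *PRM5*, a known Slt2 target gene, had 10.70 and 12.12 in Sample B and 11.20 and 11.74 in Sample D, with a difference of -0.06 (-0.84 to 0.71). The phosphatase gene *PTP2*, which acts on Hog1 and Slt2, had steps of 1.32 and 0.81. For *PRM5* and *PTP2* the step into KCl passed alone (adjusted p with the block 0.0446 and 0.0172). The step out of it did not (0.217 and 0.414). The median mean step was 0.03 over the pathway list and 0.46 over the Rlm1-linked list, against -0.02 over all genes. Between Samples B and D none of the 27 pathway genes passed. In the Rlm1-linked list 2 of 21 did, *GSC2*, a glucan synthase (13.22 and 12.23 in Sample B and 10.48 and 10.95 in Sample D), and *PRM10* (1.15), and neither passed after centring, when the list's median turned from 0.14 to -0.12.

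Glycogen and trehalose genes were also called for the mean of the steps. *GSY1*, the second glycogen synthase, had 6.39 and 7.24 in Sample A, 10.70 and 10.01 in Sample B, 9.42 and 8.88 in Sample C and 10.004 and 10.78 in Sample D. Samples B and D overlapped, with a difference of -0.04 (-1.07 to 0.99). The step of *GSY1* out of KCl did not pass alone (adjusted p with the block 0.473). The list held 7 of 22 genes above 0 for the mean of steps with the block, against 1.16% of all genes. Among them were *GSY2*, *TSL1* and *TPS2* of trehalose synthesis and the phosphorylase gene *GPH1*. *GSY2* and *GPH1* were not among the 38 genes higher after both changes with both replicate numbers. The list's median step out of KCl was -0.01, against -0.09 over all genes. For *TSL1* and *TPS2* the step out of KCl was small, 0.10 and 0.38.

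The 8 genes called below 0 for the mean of the steps included several that act in the cell cycle. Among them the step out of KCl passed alone for *BSC1* (adjusted p 0.0056 with the block). It did not for *CLB6* (0.217), *SFG1* (0.724), *FAR1* (0.473), *SPT21* (0.336) or *MCD1* (0.321). *CLB6*, a cyclin of S phase, had 7.81 and 7.0 in Sample B against 9.17 and 8.81 in Sample A, and 7.80 and 7.72 in Sample D against 9.26 and 9.93 in Sample C. Its mean step was -1.71 ± 0.27 (adjusted p 0.0305 with the block, 0.0800 without). *SFG1*, a regulator of growth form and daughter-cell separation, had steps of -2.53 and -0.68, *FAR1*, the inhibitor of G1 cyclins, -1.81 and -1.0, and *SPT21*, needed for histone gene expression, -1.09 and -0.93. *MCD1*, a subunit of cohesin, had -0.85 and -0.91. *BSC1* differed from these: the step out of KCl was the larger (a measured -2.73, against -0.32 into it), and it had 5.55 and 5.12 in Sample B and 4.94 and 4.42 in Sample D, against 7.72 and 7.09 in Sample C. Neither Sample D array was above background, and against the background the step out of KCl was -2.19 or further below 0. *GFD2* had steps of -1.43 and -0.67. Of the 19 cyclin and inhibitor genes 8 were lower in all 4 differences, as were 15 of 38 genes of G2/M and mitotic exit, against 5.80% of all genes, but of these only *CLB6* and *FAR1* passed the blocked test for the mean. After centring *FAR1* and *SFG1* no longer passed (adjusted p 0.0587 and 0.0570).

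**Figure D4:**
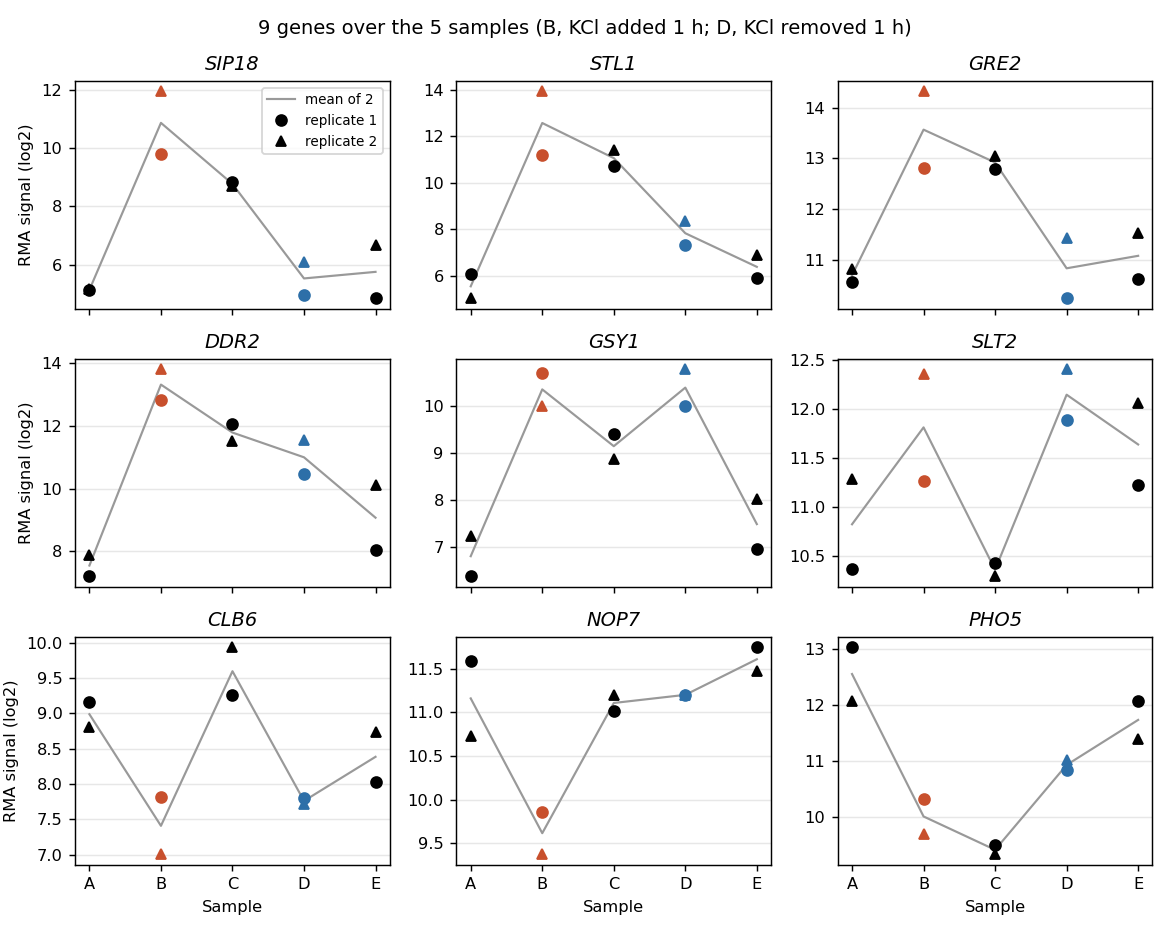
RMA signal (log2) of 9 genes in Samples A to E on each array (circles replicate 1, triangles replicate 2, line the mean of both), with Sample B in orange and Sample D in blue and a separate scale for each gene. *SIP18*, *STL1* and *GRE2* peak in Sample B, *DDR2* stays raised in Sample D, *GSY1* and *SLT2* have their highest means in Samples B and D and *CLB6* its lowest, *NOP7* is low in Sample B, and *PHO5* is lowest in Sample C.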

How the data were processed

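The authors deposited log2 expression values from Affymetrix Yeast Genome 2.0 arrays, made with RMA in Affymetrix Expression Console (per the submitters' processing notes, version not given in the sources used here). RMA corrects background, normalizes and summarises probes. Of 10928 probe sets, 5498 matched an *S. cerevisiae* gene in the platform annotation and the RefSeq gene table. Where a gene had several probe sets (47 genes), the one with the highest mean was kept, leaving 5449 genes. The level of other-species probe sets is the 95th percentile of named probe sets with other gene identifiers. Where no array of a group was above it, a fold is given as "at least", with the higher of the background and the gene's own signal taken per array. limma 3.58.1 (R 4.3.3) fitted 1 mean per group over all 10 arrays, with eBayes and Benjamini-Hochberg adjustment over all genes, and was tested on simulated data. The study's methods used fold changes against Sample A and name no test. The labels only number the replicates, and the methods report replicate cultures grown at separate times. That equal numbers mark the same culture in every sample is assumed, not stated. Deviations from group means correlated between same-numbered arrays of the 10 pairs of groups at 0.22 to 0.52 (median 0.43), so the fit with a replicate block is given beside the other.

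Named genes are the 12 largest differences a side that passed in the same direction with both replicate numbers, filled from the blocked test (all came from it, and only 10 were lower), 6 a side for the mean and for the difference of the steps, the 4 largest members and all called members of each list described, *GCN5* and strain markers. Members, lists and rules were chosen with earlier results of these data known. Alternatives were centring, quantile normalization, a filter on dim genes, the mean of probe sets, all probe sets, the compared groups alone, eBayes with trend, array weights and leaving out arrays. The depth of an array is not a count, and 2 arrays per group limit precision. No sequences were used here.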

Additional observations from a re-analysis of the deposited data

Results flagged for a closer look

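The difference between the step into KCl and the step out of it, tested with limma without a block, was flagged because the same kind of contrast (1 h after a medium change against its starting sample) gave unlike effects in the 2 directions. It passed above 0 for 73 genes and below 0 for 7. The largest values above 0 were 10.27 for *STL1*, 8.96 for *SIP18*, 8.61 for *HSP12*, 8.36 for *NQM1*, 8.13 for *HXT5* and 8.10 for *GRE1*. The largest below 0 were -4.04 for *PHO5*, -3.65 for *PHM6*, -3.41 for *FRE7*, -3.27 for *YOL014W*, -2.64 for *YHR214C-E* and -2.35 for *FPR4*.

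Of 3470 probe sets without a gene symbol, which the comparisons leave out, 10 were higher in Sample B than in Sample D with the replicate block over all probe sets and 0 were lower. With 2 arrays per group, no sample could be checked as an outlier within its group.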

How the results depend on the processing

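The 22 named genes of Sample B minus Sample D kept their sign under all 20 alternatives. This was largely fixed in advance and is no sign of robustness. The genes were chosen for the same sign with both replicate numbers, and many alternatives change the error but not the difference. Counts did not hold. For Sample B minus Sample D, 0 genes passed, but with the replicate block 157 were higher and 10 lower, with the block and median centring 153 and 117, and with trended, robust eBayes 32 and 1. With array weights, the 2 groups alone, centring or quantile normalization without the block, the dim-gene filter and the probe set alternatives the count stayed 0. Leaving out 1 array gave 0 to 1621 higher (1621 without Sample B replicate 1, 81 without Sample B replicate 2, 0 otherwise) and 0 to 268 lower. In the blocked fit, as alternatives added after seeing the data, leaving out 1 array gave 0 to 1781 higher and 0 to 312 lower (265 and 166 without Sample B replicate 2, 62 and 2 without either Sample A array, 111 and 3 without either Sample C array), and adjusting over all probe sets gave 140 and 8. The paired fit with the block changed the mean of the steps from 0 and 0 to 63 and 8 (99 and 31 with centring), and leaving out 1 array gave 0 to 547 above and 0 to 189 below. For the difference of the steps, 73 above and 7 below became 250 and 30 with the block, 301 and 224 with the block and centring, 121 and 23 with centring, 116 and 43 with quantile normalization, 58 and 4 with 4 groups alone, 105 and 14 with trended eBayes, and 0 to 1149 and 0 to 251 with 1 array left out. The cause was not tested, except that leaving out an array or the block's pairing changes the residual spread by construction. 2 arrays per group, and the Sample B arrays' difference, limit all counts.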
